A study of Mus musculus with 26 samples.

Results

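Double positive (DP) thymocytes were compared with immature single positive (ISP) thymocytes, the stage just before them, on 4 of the 26 bead arrays of a mouse study of T cell acute lymphoblastic leukaemia and of 7 stages of normal thymocyte development. The DP group was 2 arrays of C57BL/6 thymocytes with the phenotype CD4+CD8+. The ISP group was 2 arrays of C57BL/6 thymocytes with the phenotype CD4-CD8+CD24+TCRbeta-. All cells came from animals, the labels name no treatment for either group, and age and sex were not used here. Cells were taken straight from a suspension or sorted, and which was done for a given array is not given in the sources used here. The labels do not give separate animals for the arrays of a stage, and a p-value here reflects array-to-array spread, which may be technical. DP 1 lay alone among the normalised arrays on slide 5 and ISP 1 lay on slide 4, while DP 2 and ISP 2 shared slide 7.

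Thymocytes pass through the ISP stage while they divide rapidly after a productive T cell receptor (TCR) beta chain has been made and signals as part of the pre-TCR. They then become DP cells, most of which leave the cell cycle, express the recombinase again and rearrange the TCR alpha locus. DP cells that assemble a receptor are tested on self peptides in the cortex, and those that receive no survival signal die there. The comparison asks which transcripts differ across this step.

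Levels are log2 intensities after background correction and quantile normalisation of 15 thymocyte arrays. A probe counts as detected on an array where its detection p-value is under 0.01, and a probe was tested if detected on at least 2 of the 15 arrays. A difference is DP minus ISP from limma, with 1 mean per stage and 8 residual degrees of freedom, and is called at a Benjamini-Hochberg adjusted p under 0.05 over all probes tested. For genes with several tested probes, the probe with the highest mean over the 15 arrays stands for the gene. A group in which no array detected a probe gives a bound on the fold, written as at least N-fold. On bulk arrays, fewer cells that express a gene and less RNA per cell cannot be told apart.

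The labels were set against their markers first. Cd4, the coreceptor for MHC class II, had levels of 8.49 and 8.18 on the DP arrays, against 5.50 and 5.27 on the ISP arrays. It was 7.75-fold higher in DP cells (log2 difference 2.95, SE 0.36, adjusted p = 0.000179), with no overlap between the stages. A second, dimmer Cd4 probe gave a difference of -0.64 and was not called. Cd8a, a chain of the coreceptor for MHC class I, was detected on both DP arrays at 5.11 and 5.13 and on no ISP array, where it read 4.14 and 4.21. Its bound was at least 1.57-fold higher in DP cells (adjusted p = 0.00335), and the call was lost under median scaling. Cd8b1, the other CD8 chain, was detected on all 4 arrays at 9.91 and 10.36 in DP cells, against 10.44 and 10.82 in ISP cells. The 3 tested Cd8b1 probes disagreed, with differences of -0.49, 0.85 and 2.20, of which the last was called. The probe that stands for Cd8b1 was brightest in ETP, a stage before CD8 appears, with a mean of 12.37. Cd24a, whose product CD24 is part of the ISP phenotype, was detected in both stages at 5.40 and 4.87 in DP cells, against 6.13 and 5.22 in ISP cells, and did not pass the test.

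Of 24530 probes tested, 4546 differed between DP and ISP cells, which is 18.5%. Of these, 2158 were higher in DP cells (8.8% of those tested) and 2388 were lower (9.74%). At a size of at least 2-fold, 3861 probes were called (15.7%), with 1810 higher (7.38%) and 2051 lower (8.36%). The median log2 difference was 1.48 among called rises and -1.48 among called falls, against -0.0087 over all probes. Scaling changed this split. Median scaling of the arrays gave 656 higher and 2196 lower, with a median over all probes of -0.12. Scaling on the median of probes detected on all 15 arrays, chosen after seeing the data, gave 2097 higher and 1571 lower, with a median of 0.40. Without ISP replicate 2 the count was 2902, and without ISP replicate 1 it was 2982. By detection alone, which uses no scaling between arrays, 708 of 46237 probes (1.53%) were detected on both DP arrays and neither ISP array, and 585 (1.27%) on both ISP arrays and neither DP array. Detection covered 34.7% and 40.1% of probes on the DP arrays, against 35.7% and 36.6% on the ISP arrays.

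The arrays of a stage resembled each other more than those of the other stage. Across the 24530 probes, Pearson's r was 0.954 between the DP arrays and 0.969 between the ISP arrays, against 0.888 to 0.915 between stages. Probes are not independent replicates, so these values carry no test. At the level of genes, 2722 of 13373 were called (20.4%), 1257 higher (9.4%) and 1465 lower (11%). All 2722 had the same direction in the pair that shared slide 7 and in the other pair, and 2184 of them differed at least 2-fold within slide 7. The call itself used both pairs, so this is a description.

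**Figure D1:**
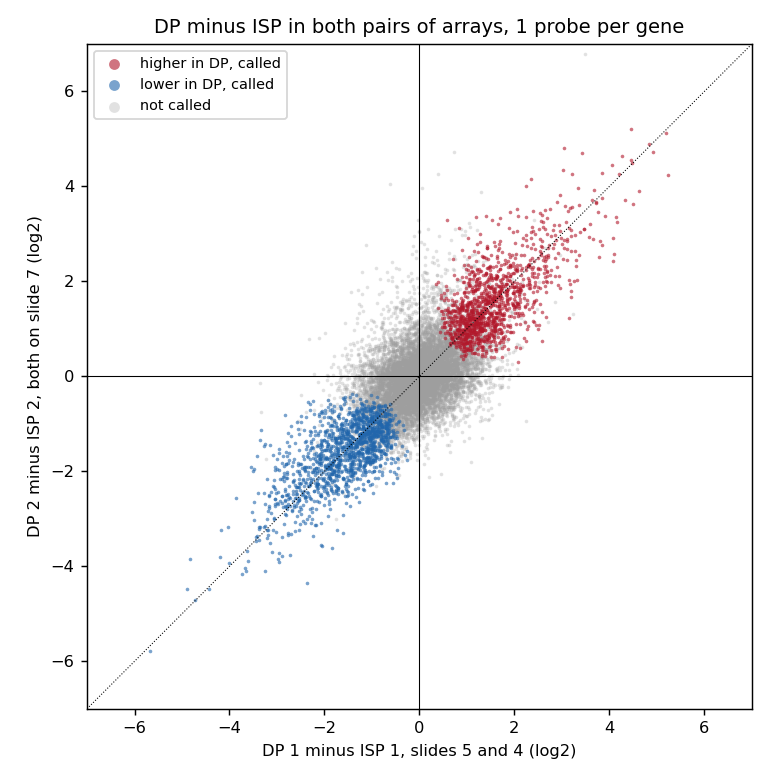
Log2 difference of DP 1 minus ISP 1 (x axis, arrays on slides 5 and 4) against DP 2 minus ISP 2 (y axis, both on slide 7) for 13373 genes, 1 probe per gene. Red points are the 1257 genes called higher in DP, blue points the 1465 called lower and grey points the genes not called. The dotted line marks equal differences. Called genes lie in the upper right and lower left quadrants.

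The largest rises in DP cells were in genes of varied function, with folds between 16.8 and 35.9. Hsd11b1, which encodes the enzyme that regenerates active glucocorticoid from its inert form, led them (probe ILMN_3115917). Its levels were 10.88 and 10.77 in DP cells, against 5.68 and 5.64 in ISP cells, a 35.9-fold difference (log2 difference 5.16, SE 0.37, adjusted p = 1.2e-05). Its 3 other tested probes were called in the same direction. Slc7a11, the transport subunit of the cystine and glutamate exchanger, had levels of 9.93 and 10.22 in DP cells, against 5.11 and 5.32 in ISP cells, or 29.1-fold. Of its 4 other probes, 3 were called higher and 1 was not called. Cd52, a small lipid-anchored surface glycoprotein of lymphocytes, had levels of 13.41 and 13.68 in DP cells, against 8.94 and 8.47 in ISP cells. These 3 genes were separated between the stages by more than 4 log2 units on every pair of arrays.

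The other 9 of the 12 largest rises were as follows. Cd69, an early activation antigen that holds lymphocytes in tissue, stood at 9.60 and 9.94 in DP cells, against 5.38 and 5.67 in ISP cells (18.9-fold, adjusted p = 0.000627). A second, dimmer Cd69 probe gave -0.02 and was not called. St6gal1, which adds terminal sialic acid to N-glycans, read 10.68 and 10.49 in DP cells, against 6.20 and 6.00 in ISP cells (22.4-fold). Dusp6, a phosphatase that switches off ERK kinases, read 10.73 and 10.45 in DP cells, against 6.11 and 6.55 in ISP cells (19.2-fold). The secreted peptide Insl5 and the sodium channel beta subunit Scn4b were each detected on both DP arrays and on 1 ISP array, with differences of 4.51 and 4.26. A second Scn4b probe was not called. Arap2, a GTPase-activating protein for Arf proteins, differed by 4.83, the secreted calcium-binding protein Smoc1 by 4.74, the immunity-associated GTPase Gimap8 by 4.45 and Xrra1 by 4.07. Within slide 7 the 12 differences lay between 3.63 and 5.20.

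The largest falls included a run of enzymes of one-carbon, nucleotide and polyamine metabolism. Plac8, a small cysteine-rich protein, led them (probe ILMN_2988143), at 4.99 and 5.05 in DP cells, against 10.66 and 10.82 in ISP cells. It was 52.7-fold lower in DP cells (log2 difference -5.72, SE 0.24, adjusted p = 3.16e-07). Egfl7, a secreted protein with EGF-like domains, read 4.77 and 5.18 in DP cells, against 9.49 and 9.89 in ISP cells. Of its 2 other probes, 1 was called lower and 1, the dimmest, was not called. Bcat1, the cytosolic aminotransferase of branched-chain amino acids, read 4.19 and 4.92 in DP cells, against 9.09 and 9.40 in ISP cells. None of these genes overlapped between the stages.

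Shmt1, the cytosolic enzyme that moves a carbon unit from serine to folate, read 5.26 and 6.10 in DP cells, against 9.69 and 10.59 in ISP cells, a 22.0-fold fall. Mthfd1, which interconverts the folate forms that carry this unit, read 6.77 and 6.83 in DP cells, against 10.39 and 10.70 in ISP cells. Cad, the enzyme of the first steps of pyrimidine synthesis, read 5.62 and 6.26 in DP cells, against 9.79 and 9.49 in ISP cells. The dCMP deaminase Dctd fell by 4.00 on the log2 scale, and Srm, the spermidine synthase, fell by 3.87. Smyd2, a lysine methyltransferase, was detected on neither DP array, with measured levels of 4.27 and 4.67, against 8.00 and 8.84 in ISP cells, and was at least 14.3-fold lower. The differences were -4.33 for the sterol-binding membrane protein Tmem97, -3.85 for the glutathione transferase Gsto1 and -3.97 for the transcript 2010317E24Rik, of unknown role. In the pair that shared slide 7 the 12 differences ran from -5.77 to -3.22.

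**Figure D2:**
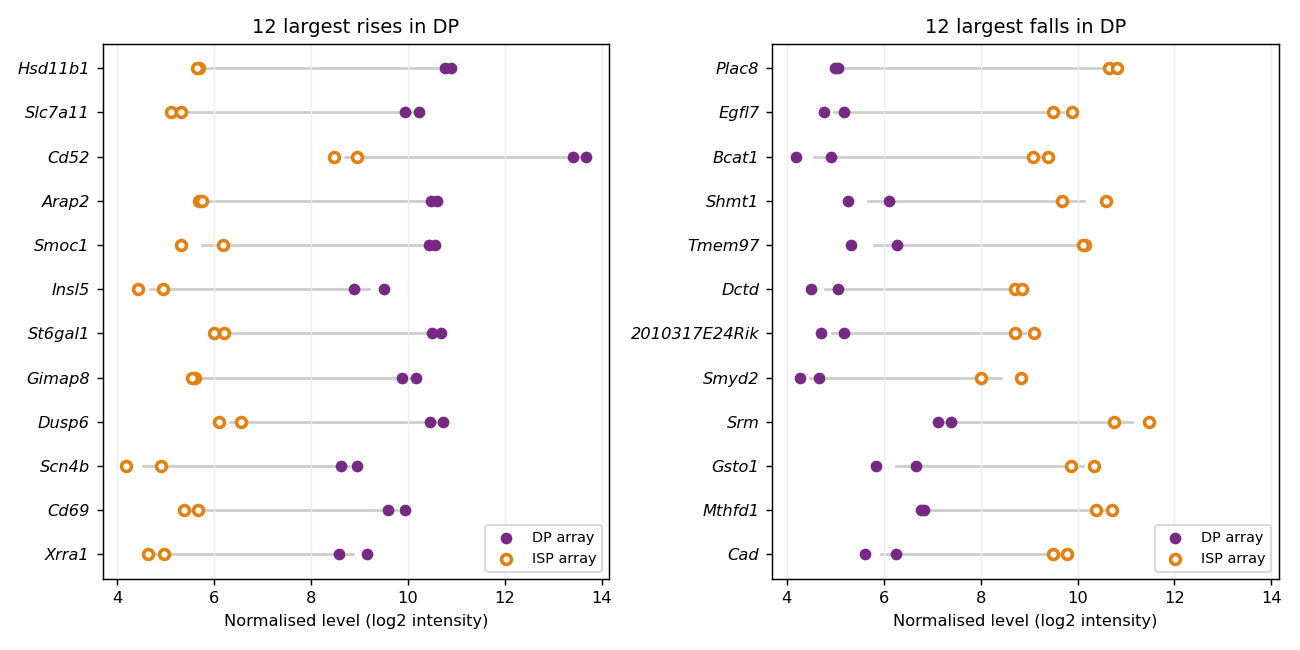
Normalised level (log2 intensity, x axis) of the 12 genes with the largest rises in DP (left) and the 12 with the largest falls (right). Filled points are the 2 DP arrays, open points the 2 ISP arrays, and grey lines join the stage means. DP and ISP points do not overlap for any of the 24 genes, which the rule for naming them required.

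Nearly all tested genes of mitosis and DNA replication were lower in DP cells. Among mitosis genes, 21 of 26 had a tested probe, and 18 of those 21 were called lower and 0 higher, against 11% lower and 9.4% higher among all genes. These shares of all genes are the background for each list and family count that follows. The mitosis list's median difference was -2.31, against -0.016 over all genes. Top2a, the topoisomerase that untangles chromosomes, read 8.42 and 8.32 in DP cells, against 11.80 and 11.53 in ISP cells (9.82-fold lower). Plk1, a kinase of mitotic entry and spindle assembly, read 8.25 and 8.06 in DP cells, against 11.46 and 11.29 in ISP cells (adjusted p = 1.2e-05). Cdk1, the kinase that drives mitosis, read 7.05 and 7.62 in DP cells, against 10.59 and 10.48 in ISP cells, though its 2 dimmer probes were not called. Aurkb, the kinase of the chromosomal passenger complex, fell by 3.25 on the log2 scale, and the proliferation antigen Mki67 fell by 2.35. Both Mki67 probes were called lower. The calls of 15 of the 18 genes held in every alternative fit.

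DNA replication genes followed the same direction, with 26 of 27 tested genes called lower and a median of -2.24. Mcm3, a subunit of the replicative helicase, read 6.85 and 7.25 in DP cells, against 10.01 and 10.02 in ISP cells (7.84-fold lower, adjusted p = 0.000128). Cdc6, which loads that helicase at origins, read 7.83 and 7.97 in DP cells, against 10.84 and 10.43 in ISP cells. The differences were -2.81 for Mcm10, a factor of replication start, -2.47 for the thymidylate synthase Tyms and -2.69 for the replicative polymerase subunit Pole. Pcna, the sliding clamp, was the gene that missed the threshold, at 7.34 and 6.49 in DP cells, against 9.23 and 8.57 in ISP cells (adjusted p = 0.0624). Of the 26 calls, 23 held in every alternative fit, and between 24 and 27 genes were called when any 1 array was left out.

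Genes that act in G1 were mixed, with 5 of 21 lower and 4 higher, against 11% and 9.4% of all genes. The cyclins Ccne1 and Ccne2 differed by -2.64 and -2.37, and Cdk4, the kinase partner of D cyclins, fell by 2.22 on the log2 scale. Ccnd2 was detected on neither DP array and was at least 5.36-fold lower in DP cells, with 2 of its 4 probes called, whereas Ccnd3 did not pass the test, with a difference of 0.64. E2f1, the factor that turns on replication genes, fell by 1.87. The antiproliferative factor Btg1 read 13.47 and 13.27 in DP cells, against 10.87 and 10.13 in ISP cells (7.31-fold higher). The Cdk inhibitors Cdkn1b and Cdkn2d rose by 0.99 and 1.39, and Btg2, undetected in ISP cells, was at least 3.16-fold higher. Of these 9 calls, 4 held in every alternative fit. Without ISP replicate 1 the count of rises was 1, without ISP replicate 2 or DP replicate 2 it was 2, and without DP replicate 1 the count of falls was 3.

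Promoters of the genes of both lists differ in known ways. E2F factors bind sites near the start of many replication genes, and the CHR element with nearby CCAAT boxes marks promoters of many mitosis genes. Windows of 300 bases (250 before the start of transcription and 50 after it) come from RefSeq on GRCm38.p6. The 3 mitosis genes and 2 replication genes with the largest falls among called genes that have a window in the table are shown, 5′ to 3′ on the strand of the gene. Capitals mark, on either strand, the E2F letters TTTCCCGC or TTTGGCGC, the CHR letters TTTGAA and the CCAAT letters, and none of these motifs overlap here. The windows are chr11:99024140-99024439 on the minus strand for Top2a, chr7:122159185-122159484 on the plus strand for Plk1, chr10:69352863-69353162 on the minus strand for Cdk1, chr1:20820263-20820562 on the minus strand for Mcm3 and chr2:5012742-5013041 on the minus strand for Mcm10.
Top2a: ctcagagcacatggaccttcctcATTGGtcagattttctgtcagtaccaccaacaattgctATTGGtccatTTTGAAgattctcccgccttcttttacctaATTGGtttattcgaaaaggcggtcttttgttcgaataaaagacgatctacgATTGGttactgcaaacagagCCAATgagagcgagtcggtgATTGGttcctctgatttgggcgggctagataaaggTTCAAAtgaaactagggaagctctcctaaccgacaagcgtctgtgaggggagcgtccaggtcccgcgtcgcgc
Plk1: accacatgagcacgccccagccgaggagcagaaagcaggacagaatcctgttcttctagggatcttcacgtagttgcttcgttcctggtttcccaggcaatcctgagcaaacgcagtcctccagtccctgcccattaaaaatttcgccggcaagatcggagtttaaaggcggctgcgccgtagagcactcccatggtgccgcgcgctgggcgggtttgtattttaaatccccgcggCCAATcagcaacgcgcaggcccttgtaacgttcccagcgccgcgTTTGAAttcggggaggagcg
Cdk1: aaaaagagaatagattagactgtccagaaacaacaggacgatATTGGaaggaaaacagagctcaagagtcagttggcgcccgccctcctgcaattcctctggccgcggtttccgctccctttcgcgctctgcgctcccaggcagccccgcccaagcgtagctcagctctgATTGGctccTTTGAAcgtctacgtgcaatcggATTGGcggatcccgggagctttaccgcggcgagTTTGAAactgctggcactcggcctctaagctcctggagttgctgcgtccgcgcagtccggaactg
Mcm3: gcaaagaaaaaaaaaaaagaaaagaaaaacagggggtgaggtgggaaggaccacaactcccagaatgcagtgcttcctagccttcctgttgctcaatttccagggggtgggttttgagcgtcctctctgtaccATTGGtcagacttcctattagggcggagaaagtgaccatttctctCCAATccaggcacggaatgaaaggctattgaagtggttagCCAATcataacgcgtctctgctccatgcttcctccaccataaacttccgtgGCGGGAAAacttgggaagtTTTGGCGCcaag
Mcm10: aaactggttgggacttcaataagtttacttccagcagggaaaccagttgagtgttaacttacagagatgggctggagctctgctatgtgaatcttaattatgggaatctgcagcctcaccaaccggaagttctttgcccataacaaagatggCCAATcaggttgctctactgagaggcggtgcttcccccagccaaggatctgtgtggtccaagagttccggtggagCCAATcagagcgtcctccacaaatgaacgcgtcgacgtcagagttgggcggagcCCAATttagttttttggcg

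The CHR letters were in the windows of Top2a, Plk1 and Cdk1 and in neither replication window shown. Mcm3 held 2 E2F matches and 3 CCAAT boxes, and Mcm10 held 0 E2F matches and 3 CCAAT boxes. The Mcm10 window ends in TTTGGCG, so an E2F match that crosses its end would be missed. Across the 15 mitosis genes called lower that have a window (16 windows), 13 windows held the CHR letters and 13 a CCAAT box, and 0 held the E2F letters. Across the 22 replication genes called lower (26 windows), 8 held the E2F letters, which is 30.8%, and 3 the CHR letters, which is 11.5%. Among all 32851 windows the shares were 1.56% for E2F, 17.9% for CHR and 37.4% for CCAAT. These matches are letters in a window and not measured binding. Only 2 spellings of an E2F site were searched, so a window with 0 matches may still hold another form. A similar run of letters, TTTCGCGC, lies unmarked in the Cdk1 window.

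**Figure D3:**
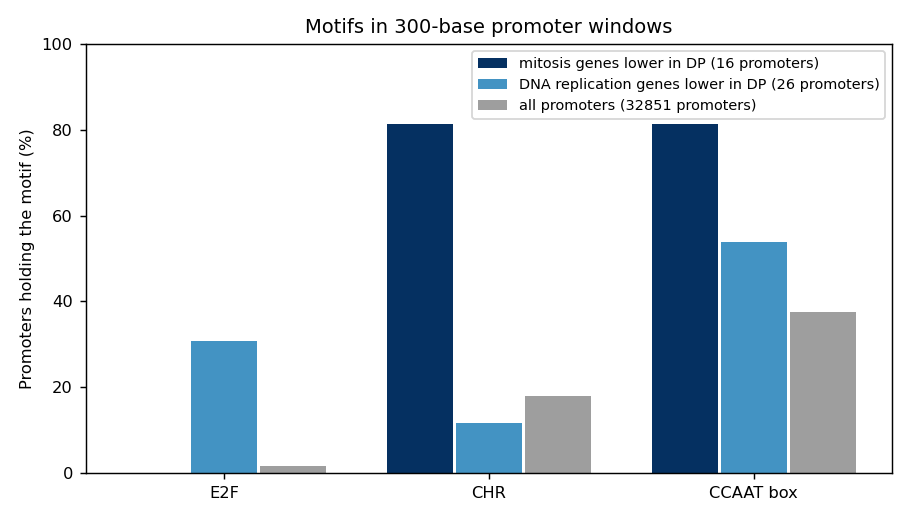
Percentage of 300-base promoter windows (y axis) that hold each motif (x axis), for the mitosis genes called lower in DP (16 windows, dark blue), the DNA replication genes called lower in DP (26 windows, light blue) and all 32851 windows in the table (grey). CHR matches are most frequent in the mitosis windows. E2F matches, in the 2 spellings searched, are most frequent in the replication windows.

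Genes of cell growth were also lower in DP cells. Of 22 tested genes in the Myc and ribosome biogenesis list, 17 were called lower and 0 higher, with a median of -1.69. Polr1b, a subunit of RNA polymerase I, read 6.28 and 4.98 in DP cells, against 9.54 and 9.08 in ISP cells (12.8-fold lower). Rrp12, a factor of ribosome assembly and export, read 7.74 and 7.06 in DP cells, against 10.50 and 10.41 in ISP cells. Nhp2, a protein of the particles that modify ribosomal RNA, fell by 2.51 on the log2 scale. Myc itself was detected on neither DP array, with levels of 4.20 and 4.36, against 6.51 and 6.27 in ISP cells. It was at least 3.84-fold lower (adjusted p = 0.0201), a call that was lost in 10 alternative fits, among them each fit without 1 of the 4 DP and ISP arrays. Npm1, the nucleolar protein nucleophosmin, differed by -0.71 and did not pass the test. Of the 17 calls, 10 held in every alternative fit.

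Metabolic genes were lower as well, serine and folate enzymes among them. Of 21 tested genes for glycolysis, nutrient uptake and one-carbon metabolism, 14 were called lower and 0 higher, with a median of -1.68. Of the 14 calls, 9 held in every alternative fit. Beside Shmt1 and Mthfd1, the serine synthesis enzyme Psat1 read 8.27 and 8.11 in DP cells, against 11.71 and 11.58 in ISP cells (11.0-fold lower). Phgdh, the first enzyme of that route, read 6.57 and 6.35 in DP cells, against 9.94 and 9.79 in ISP cells. The mitochondrial enzymes Shmt2 and Mthfd2 differed by -3.24 and -2.70. Among glycolytic enzymes the differences were -2.81 for Tpi1, -1.33 for Ldha and -0.84 for Gapdh. The glucose transporters Slc2a1 and Slc2a3 did not pass the test, with differences of 0.39 and 0.32, and nor did the transferrin receptor Tfrc, at 6.39 and 8.70 in DP cells, against 9.62 and 10.44 in ISP cells.

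Sterol synthesis genes were lower too, with 6 of 12 tested genes called lower, 0 called higher and a median of -1.56. Cyp51, the lanosterol demethylase, read 4.68 and 5.74 in DP cells, against 7.93 and 8.44 in ISP cells (7.86-fold lower). Sqle, the squalene epoxidase, read 7.51 and 7.92 in DP cells, against 10.27 and 10.62 in ISP cells. Lss, which closes the sterol rings, fell by 2.10 on the log2 scale, and its call was lost without DP replicate 1, without ISP replicate 2 and with all 16 thymocyte arrays. The regulator Srebf2 differed by -0.40 and was not called. Without ISP replicate 2, 4 genes of this list were called.

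**Figure D4:**
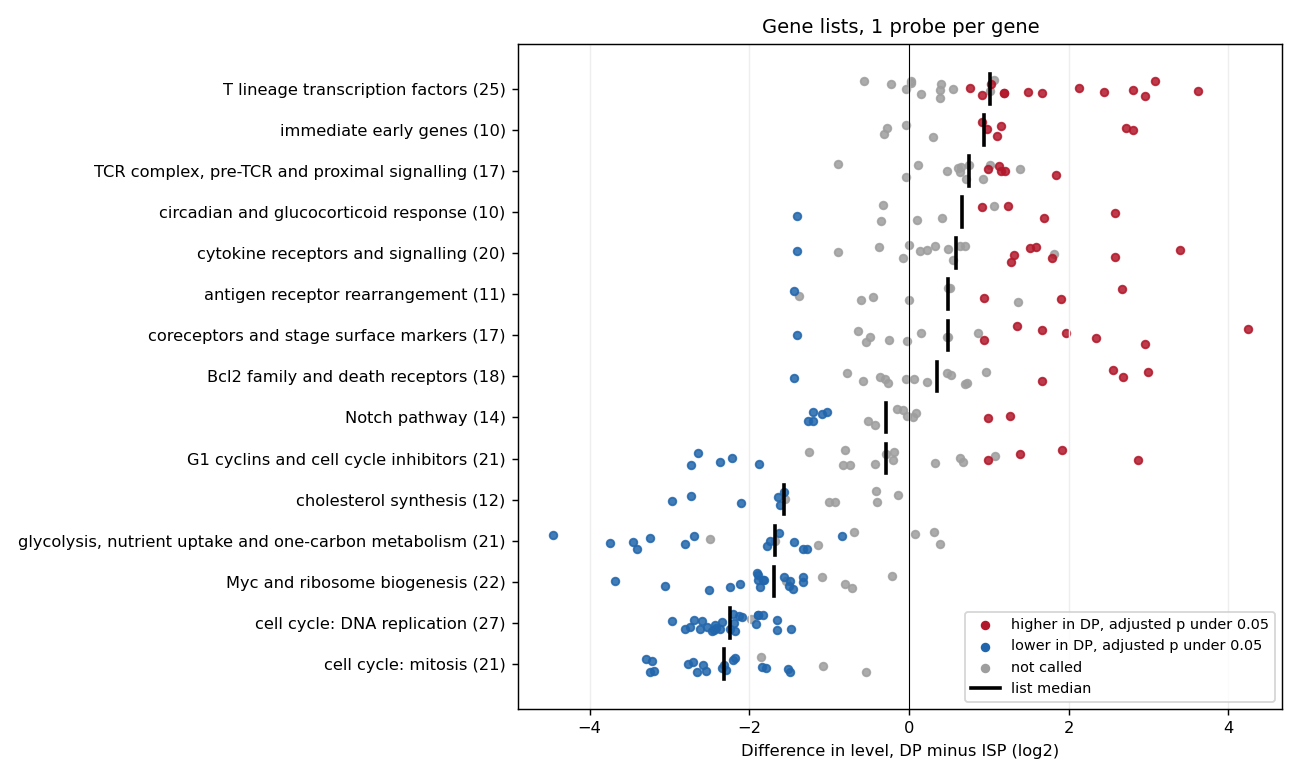
Log2 difference of DP minus ISP (x axis) for each tested gene of 15 lists (y axis, number of genes in parentheses, lists ordered by median). Red points were called higher in DP, blue points lower, grey points were not called, and black bars mark the list median. Lists for mitosis, DNA replication, ribosome biogenesis, metabolism and sterol synthesis lie left of 0, and T lineage transcription factors have a median of 1.02.

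Within slide 7, where both stages shared a slide, the medians of the 15 lists in the plot had the same direction except for the Notch pathway. They were -2.30 for mitosis, -2.10 for DNA replication, -1.82 for ribosome biogenesis, -1.89 for metabolism and -1.63 for sterol synthesis. For T lineage transcription factors the slide 7 median was 1.05, for TCR signalling 0.85, for surface markers 0.69 and for rearrangement 0.22. All called genes of the 21 lists kept their direction in that pair. The calls used that pair too, so this is a description.

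The recombinase genes rose in DP cells. Rag1 (probe ILMN_1217622), a subunit of the enzyme that cuts antigen receptor loci, read 13.64 and 12.34 in DP cells, against 10.33 and 10.31 in ISP cells. It was 6.38-fold higher (log2 difference 2.67, SE 0.38, adjusted p = 0.000425). Rag2, its partner, read 7.98 and 8.30 in DP cells, against 5.98 and 6.50 in ISP cells (3.73-fold, adjusted p = 0.00661). Its call was lost under median scaling and without ISP replicate 1. Dntt, the polymerase that adds untemplated bases at junctions, read 11.83 and 10.66 in DP cells, against 11.07 and 10.43 in ISP cells, and did not pass the test.

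Over the rearrangement list, 3 of 11 tested genes were higher and 1 was lower, against 9.4% and 11% of all genes. The list's median was 0.49 and turned to -0.07 under median scaling. The other calls were in the end-joining polymerases. Poll fell by 1.43 on the log2 scale, and Polm, detected on 1 DP array and 0 ISP arrays, was at least 1.55-fold higher. Both calls were lost without any 1 of the 4 DP and ISP arrays, and without ISP replicate 1 the count of rises was 1. The joining factors Lig4 (1.37), Xrcc6 (0.51), Nhej1 (-0.45) and Prkdc (-0.61) were not called on their brightest probes. A dimmer Xrcc6 probe (-1.24) and a dimmer Prkdc probe (-1.36) were called lower, and another Xrcc6 probe (-0.02) was not called.

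In the TCR complex and its proximal signalling, 5 of 17 tested genes were higher, 0 were lower and the median was 0.75. Among all genes, 9.4% were higher and 11% lower. Cd3d, a signalling chain of the TCR, read 14.20 and 14.23 in DP cells, against 13.15 and 12.97 in ISP cells (2.22-fold, adjusted p = 0.00205). The kinase Zap70 rose by 0.99, the exchange factor Vav1 by 1.13, the surface receptor Cd6 by 1.20 and Themis, which thymocytes need for positive selection, by 1.84. Cd3e (0.93), Cd3g (0.64) and Lat (0.75) were not called. Ptcra, the invariant pre-TCR alpha chain, was not called either, at 6.90 and 7.14 in DP cells, against 7.35 and 8.47 in ISP cells. None of the 5 calls held in every alternative fit, and those of Zap70 and Cd6 were lost with slide as a fixed block. Under median scaling 0 genes of this list were called, with a median of 0.27. Without ISP replicate 2 the count was 1, and without DP replicate 1 it was 2.

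Among coreceptors and surface markers, 7 of 17 tested genes were higher, 1 was lower and the median was 0.49. Beside Cd4, Cd8a and Cd69, the rises included Slamf1, a receptor of lymphocyte contacts, at 8.70 and 9.03 in DP cells, against 6.40 and 6.65 in ISP cells (5.05-fold). Cd27, a costimulatory receptor, read 13.55 and 14.05 in DP cells, against 11.86 and 11.79 in ISP cells (3.92-fold), and 2 of its 3 probes were called. Cd1d1, which presents lipids to NKT cell precursors, rose by 1.67, and the chemokine receptor Cxcr4 rose by 1.36. Both of these calls were lost under median scaling. Il7r, the interleukin-7 receptor alpha chain, read 4.51 and 4.80 in DP cells, against 5.85 and 6.26 in ISP cells. It fell by 1.40 on the log2 scale (adjusted p = 0.00661), a call that was lost without ISP replicate 2 and in 5 other alternative fits. Its 3 dimmer probes were not called.

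T lineage transcription factors had a median of 1.02, with 13 of 25 tested genes higher and 0 lower. Bcl6, a transcriptional repressor, read 11.85 and 12.36 in DP cells, against 9.21 and 8.85 in ISP cells (8.43-fold, adjusted p = 0.00013). The Egr factors, which are induced by receptor signals, were all higher. Egr1 read 12.32 and 11.99 in DP cells, against 9.49 and 9.21 in ISP cells (7.01-fold), and Egr2 read 8.38 and 7.90 in DP cells, against 5.03 and 5.35 in ISP cells (7.73-fold). Egr3 was not detected in ISP cells and was at least 11.0-fold higher in DP cells, though a dimmer Egr3 probe (0.30) was not called. The bright probe of Myb, a factor for DP cell survival and rearrangement, rose by 2.44, and its 3 dimmer probes were not called.

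Further members of the list were Ets2, at 14.04 and 13.94 in DP cells, against 12.13 and 11.61 in ISP cells, Sox4 (1.67), Bcl11b (1.50), Id3 (1.19), Nfatc3 (1.19), Ets1 (1.03), Satb1 (0.92) and Ikzf1 (0.76). The factors Tcf12 (0.03), Lef1 (-0.04), Runx1 (0.39) and Gata3 (-0.56) were not called. The Tcf12 probes disagreed, as a dimmer probe was called higher (2.58) and another was not called (-0.36). Under median scaling 5 genes of the list were called, all higher. Without ISP replicate 2 the count was 8.

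The Notch pathway list held weak falls that depended on the fit. Of 14 tested genes, 5 were lower and 2 higher, against 11% and 9.4% of all genes, with a median of -0.29. Notch1, the receptor that drives T lineage commitment, read 9.60 and 9.24 in DP cells, against 11.01 and 10.23 in ISP cells (2.30-fold lower, adjusted p = 0.0348). Hes1, a direct target, was detected on neither DP array and was at least 2.02-fold lower (adjusted p = 0.0157). The differences were -1.03 and -1.20 for the targets Dtx1 and Nrarp, and -1.09 for the receptor glycosyltransferase Mfng. The coactivator Maml1 rose by 1.26 and Ncstn, a gamma-secretase subunit, rose by 0.99. None of the 7 calls held in every alternative fit, and without DP replicate 1 there were 0 calls. Without DP replicate 2 there were 0 falls, and without either ISP array there were 2. The list's median was 0.05 within slide 7, and it was 0.17 when arrays were scaled on probes detected on all of them.

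Of 18 tested genes of the Bcl2 family and death receptors, which both promote and block cell death, 4 were higher, 1 was lower and 13 were not called, against 9.4% higher and 11% lower among all genes. Fas, a death receptor, read 10.90 and 11.16 in DP cells, against 8.36 and 7.72 in ISP cells (7.98-fold, adjusted p = 4.19e-05). Bbc3, which encodes the proapoptotic protein Puma, read 9.28 and 9.23 in DP cells, against 6.42 and 6.74 in ISP cells (6.41-fold). Its dimmer probes (0.90 and 0.30) were not called. Bmf, another proapoptotic member of the Bcl2 family, read 8.83 and 9.11 in DP cells, against 6.40 and 6.42 in ISP cells. The antiapoptotic gene Mcl1 read 12.19 and 12.21 in DP cells, against 10.47 and 10.60 in ISP cells (3.17-fold). Mcl1 was not called under median scaling. Bid, a proapoptotic protein cut by caspases, fell by 1.44 on its brighter probe, while its dimmer probe (0.70) was not called. The Bid call was lost when the tested probes of each gene were averaged. Bcl2l1, whose long product Bcl-xL keeps DP cells alive, differed by 0.70 on its brightest probe and was not called, while its 2 dimmer probes were called higher. Bcl2 differed by -0.57 and was not called.

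Cytokine receptors and their signal proteins had 7 of 20 tested genes higher and 1, Il7r, lower, against 9.4% and 11% of all genes. Socs3, an inhibitor of cytokine signalling, read 8.82 and 9.14 in DP cells, against 5.60 and 5.58 in ISP cells (10.5-fold, adjusted p = 1.38e-05). Il2rg, the common gamma chain, read 7.69 and 8.19 in DP cells, against 5.13 and 5.59 in ISP cells, and Il4ra was at least 2.77-fold higher. Jak2 (1.31), Stat3 (1.28), Il6st (1.51) and Socs1 (1.59) were also called higher. Socs3 was the 1 gene of the 8 whose call held in every alternative fit. The count of rises was 3 without ISP replicate 2, and 4 without ISP replicate 1 or DP replicate 1.

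Immediate early genes, which respond to signals and to tissue handling within minutes, had 6 of 10 tested genes higher and 0 lower. Over all genes the shares were 9.4% and 11%. Zfp36, a protein that destabilises messenger RNA, read 11.10 and 11.60 in DP cells, against 8.67 and 8.59 in ISP cells (6.58-fold). Fos was not detected in ISP cells and was at least 1.81-fold higher, while Jun (-0.32) and Dusp1 (0.30) were not called. Their part in the rise of the Egr genes was not tested. The calls of Zfp36 and Egr1 held in every alternative fit, and the count was 2 without DP replicate 1 or ISP replicate 1, and 3 without DP replicate 2 or ISP replicate 2.

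Among circadian and glucocorticoid response genes, 4 of 10 tested genes were higher and 1 was lower, against 9.4% and 11% of all genes. Tsc22d3, a glucocorticoid target, read 10.70 and 11.09 in DP cells, against 7.55 and 9.07 in ISP cells (6.00-fold), and Nr1d2, a clock repressor, rose by 1.69. Fkbp5, another glucocorticoid target, fell by 1.40. Per1 (0.92) and Arntl (1.24) were the other rises. Without ISP replicate 2 the count was 1 higher and 0 lower.

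Most tested myeloid, dendritic and erythroid markers were not detected on the DP and ISP arrays, whereas markers of mature thymocytes often were. Of 12 tested myeloid and dendritic markers, the DP arrays detected 2 and 4, against 3 and 1 on the ISP arrays. Their summed intensity was 496 and 329 on the DP arrays, against 451 and 496 on the ISP arrays. Lyz2, S100a8, Csf1r and Mpo were detected on none of the 4 arrays. Siglech, a marker of plasmacytoid dendritic cells, read 7.97 and 6.09 in DP cells, against 5.77 and 4.92 in ISP cells, and did not pass the test (difference 1.68, SE 1.22). H2-Ab1, an MHC class II chain, fell by 2.40, with 5.28 and 5.65 in DP cells, against 7.63 and 8.11 in ISP cells, while Cd74 and H2-Eb1 were detected on none. The 3 tested B cell markers summed to 1301 and 798 in DP cells, against 337 and 309 in ISP cells, which followed Cd79b, the 1 marker called (1.79). Ebf1 was detected on none of the 4 arrays.

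Erythroid markers summed to 194 and 188 in DP cells, against 160 and 155 in ISP cells, and Hba-a1 and Hbb-b2 were detected on none. Hbb-b1, detected on both DP arrays and neither ISP array, read 5.52 and 4.78 in DP cells, against 4.25 and 4.50 in ISP cells, and did not pass the test. The erythroid marker Car2 was at least 2.00-fold higher, the stromal and endothelial marker Pecam1 rose by 1.75 on the log2 scale and the gamma delta T cell marker Blk was at least 2.97-fold lower. Each of these 3 calls was lost in at least 5 alternative fits, and Pecam1's without any 1 of the 4 DP and ISP arrays. Stromal markers summed to 391 and 436 in DP cells, against 223 and 248 in ISP cells. Of the 7 tested, 2 and 3 were detected on the DP arrays, against 2 and 5 on the ISP arrays. NK and gamma delta markers summed to 173 and 256 in DP cells, against 319 and 366 in ISP cells. Of 9 tested markers of mature thymocytes, 0 were higher and 2 were lower, Ctla4 and Il7r. The DP arrays detected 5 and 6 of these 9 markers, against 5 and 7 on the ISP arrays. The summed intensity of the 9 was 1714 and 1333 in DP cells, against 1544 and 1375 in ISP cells. The part of other cells in the results was not tested.

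The DP minus ISP difference does not contain the levels of the 5 earlier stages, although their arrays entered the filter, the normalisation and the estimate of spread behind each call. They are, in order, the early thymic progenitors (ETP) and the triple negative stages TN2, TN3a, TN3b and TN4. Their strains are not stated here, and the part of strain in differences between stages was not tested. For the 2158 probes called higher in DP cells, the median level was 6.94 in ETP, 6.70 in TN2, 7.28 in TN3a, 6.66 in TN3b, 6.91 in TN4, 6.77 in ISP and 8.51 in DP. DP had the highest mean of the 7 stages for 1874 of them (86.8%), against 21.6% of the probes not called. For the 2388 probes called lower, the medians were 8.05 in ETP, 8.32 in TN2, 7.87 in TN3a, 8.62 in TN3b, 8.43 in TN4, 8.56 in ISP and 6.80 in DP. DP had the lowest mean for 2044 of them (85.6%), against 20.7% of the probes not called. ISP had the highest mean for 892 of these and TN3b for 783. Because the probes were chosen on DP and ISP values, these shares are descriptions.

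Single genes took different paths to the same difference. Cd4 had a mean between 4.31 and 4.96 in the 5 earlier stages, below both DP arrays. Rag1 had an earlier peak, with 11.37 in TN3a, 9.11 in TN3b, 9.53 in TN4, 10.32 in ISP and 12.99 in DP. Hsd11b1 was likewise at 9.92 in TN3a and at 6.54 in TN3b. Scn4b in TN3a (9.84) and Dusp6 in ETP (11.45) stood above their DP means, the exceptions among the 12 largest rises. Plac8 had stage means of 13.75 in ETP, 13.76 in TN2, 13.25 in TN3a, 12.36 in TN3b, 11.75 in TN4, 10.74 in ISP and 5.02 in DP.

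In 7 of the 12 largest rises, the TN4 mean was at least 2-fold above the ISP mean. These genes were chosen in part for low ISP values, so the count is given as a description. Cd52 read 9.97, 12.90 and 11.77 in TN4, and Cd69 read 6.93, 9.75 and 8.95 there. St6gal1 read 9.47, 11.07 and 10.52 in TN4 and had an ISP mean of 6.10. Egr2 and Egr3 had TN4 means of 7.63 and 8.09, against ISP means of 5.19 and 4.31. The difference between TN4 and ISP was not tested.

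**Figure D5:**
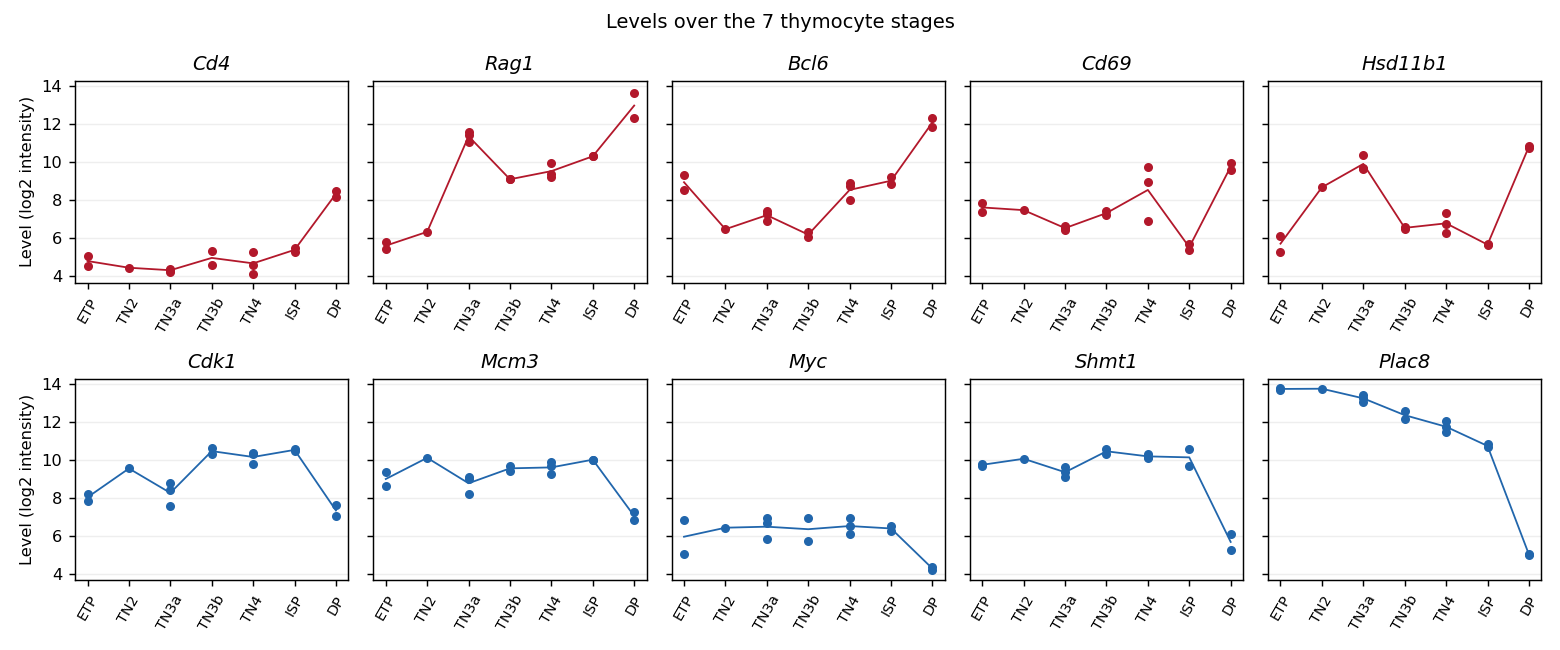
Level (log2 intensity, y axis) of 10 genes over the 7 stages in developmental order (x axis). Points are single arrays, lines join stage means, red marks genes called higher and blue genes called lower in DP against ISP. Cd4 is highest in DP, Rag1 and Hsd11b1 also peak in TN3a, and Cdk1, Mcm3, Shmt1 and Plac8 are lowest in DP.

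The depth of the 15 normalised arrays was similar. They detected 34.7% to 41.8% of probes, with median raw intensities of 83.3 to 110, and the TN2 array left out detected 21.4%. The median standard error of a difference was 0.32 on the log2 scale, and the number of arrays limits the precision. Among the lists and the 24 largest changes, 94 called genes had over 1 tested probe. For 38 of them, every other probe was called the same way. For 56, at least 1 other probe was not called, and 0 had a probe called the opposite way. Genes not called on their brightest probe were outside this count, and some, such as Tcf12, Cd247, Xrcc6 and Prkdc, had a dimmer probe called.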

How the data were processed

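The 16 thymocyte arrays were read from the table of probe intensity the authors deposited, on a linear scale with 46237 probes, neither background-corrected nor normalised as its values show, and its detection p-values, per the file headers. RNA was isolated with RNAzol B and labelled with an Ambion MessageAmp kit, per the labels' protocols; scanner software is not given in the sources used here. Intensities were background-corrected by limma's nec, whose normexp fit uses the detection p-values (offset 16), in limma 3.58.1 and R 4.3.3, followed by log2 and quantile normalisation of 15 arrays. The dim TN2 array was left out, and the joint matrix and the leukaemia arrays were not used. Probes detected (p under 0.01) on at least 2 arrays were tested with lmFit and eBayes, 2-sided. The same fit was also checked on simulated data with probe means and spreads taken from these arrays. Slide as a block used statmod 1.5.0.

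Of 46237 probes, 35667 had 1 gene in GEO's platform annotation and 10570 are unnamed here. Symbols were updated through RefSeq (GRCm38.p6), 28519 by Entrez ID, 2634 by accession and 2122 by symbol, and 2392 kept the platform's name. The named genes are the 12 largest rises and 12 largest falls (adjusted p under 0.05, at least 2-fold, no overlap, detected on both arrays of the brighter stage), and members of 21 gene lists. List members not in the probe table or not tested were left out. The comparison, members and lists were chosen with earlier results of these data known. Alternatives covered scaling, background correction, filter, slide and arrays left out. For a fold bound, each dim array's value was raised to that of its dimmest detected probe where lower, and the brighter stage's mean was set against their mean.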

Additional observations from a re-analysis of the deposited data

How the results depend on the processing

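The 4546 called probes became 2852 under median scaling (23.0% of them higher in DP cells, against 47.5%), 2780 with the 4 DP and ISP arrays fitted alone, and 2902 to 4780 when 1 array was left out. Scaling on probes detected on all arrays, chosen after seeing the data, gave 3668, of which 57.2% were higher. The 3861 probes with at least a 2-fold change became 2228 with no background correction, and 2833 to 4021 with 1 array left out. Slide as a fixed block gave 5184 calls, 3741 of them shared with the 4546, and as a random block 5876. As a fixed block, the slide 5 term takes up DP 1, its only array, so the DP level rests on DP 2. In 0 of these fits was a shared call reversed, and fits that share most of their arrays leave little room for a reversal. The count detected in DP alone, 708, was 3563 on slide 7 and 1180 to 2669 with 1 of the 4 arrays left out, chosen after seeing the data. In ISP alone, 585, it was 1932 on slide 7 and 821 to 1557. Both conditions then ask fewer arrays. Slide 7 alone allows no test. Over 4924 tested alternative values for 176 called genes, 4490 kept direction and call, 434 missed the threshold and 0 reversed. Of the 176 genes, 103 kept the call in every alternative fit. The 4924 values include fits without an array of another stage, which keep all 4 DP and ISP arrays. On slide 7 all 176 kept their direction, though the calls used the slide 7 arrays too. All 24 largest changes were called in each fit with a test. The 24 were chosen for size on the same arrays, so that is a description. No paired analysis was possible because replicate numbers only follow accession order. With 2 arrays per stage, small differences and dim probes limit the calls.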

Other observations

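Families of genes outside the lists above were picked after their values were seen, so their counts support nothing and are given as description. Of 7 tested Gimap genes, GTPases that act in lymphocyte survival, 6 were called higher in DP cells and 0 lower. Gimap1 read 12.12 and 12.22 in DP cells, against 9.07 and 9.51 in ISP cells, and Gimap6 differed by 2.40 on the log2 scale, whereas Gimap4 (-0.47) was not called. Ypel3 and Ypel5, small zinc-binding proteins, differed by 3.68 and 3.32, while Ypel1 (-0.14) and Ypel4 (-0.04) were not called.

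Of 22 tested genes of nucleotide synthesis, 16 were called lower and 0 higher, with a median of -1.98. Umps, which makes UMP, read 6.02 and 5.65 in DP cells, against 9.45 and 9.01 in ISP cells, and Gart and Atic of purine synthesis differed by -3.02 and -2.82. Aminoacyl-tRNA synthetases were called lower for 15 of 32 genes and higher for 1, Vars2 (1.07), which serves mitochondria, while its cytosolic counterpart Vars differed by -2.78. Of 54 tested histone genes, 31 were called lower and 2 higher, H1f2 (1.79) and H2ac18 (1.87). Probes of histone genes can share sequence between near-identical copies, so single members are uncertain. Ribosomal proteins had a median of -0.17, with 10 of 60 lower and 0 higher, against 11% and 9.4% of all genes. Proteasome subunits had a median of -0.65, with 11 of 37 lower and 0 higher.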
